A study of Mus musculus with 2 samples.

Results

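The mitochondrial carrier genes are named Slc25a followed by a number. Their proteins mainly move nucleotides, phosphate, organic acids, amino acids, cofactors and iron across the inner mitochondrial membrane. Slc25a17, a carrier of the peroxisome, and Slc25a46, an outer membrane protein, are counted as well. The 47 genes described here are all protein-coding genes of the mouse annotation GENCODE release 21 (assembly mm10) with such a symbol, out of 21851 protein-coding genes, and the rule uses the symbol and no measured value. They lie on 19 chromosomes. Their chromatin was profiled with DNase-seq in gastrocnemius (calf muscle) from male B6CASTF1/J mice, 36 days old, which are hybrids of the C57BL/6J and CAST/EiJ strains. No treatment and no engineered allele is named in the labels, and the 2 libraries, called replicate 1 and replicate 2, formed a single group. The labels give the libraries separate tissue samples and mouse numbers but the same donor identifier, so it is not certain that they came from separate animals, and their agreement may be in part technical. With 1 group there was no comparison of conditions and no test, so the carriers are described beside all coding genes measured in the same way, and pairs of values below are for replicate 1 and then replicate 2.

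A carrier has a pore formed by repeats of a pair of membrane helices and swaps between an opening to the cytosol side and an opening to the matrix side, often exchanging a molecule on each side. In muscle fibres the family is known for fuelling contraction. Adenine nucleotide carriers send ATP out and take ADP in, the phosphate carrier brings in phosphate for ATP synthesis, the malate-aspartate shuttle brings in reducing power from sugar breakdown, and the carnitine carrier brings in fatty acids. DNase I cuts accessible DNA, so a peak of cleavage marks open chromatin, and a footprint, a short stretch inside a peak that is cut less than its flanks, marks bases that a bound protein may cover.

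Each library had a shorter peak list, used here unless stated otherwise, of 50760 peaks in replicate 1 and 49230 in replicate 2, and a longer list of 83409 and 83736. The value of a peak is the authors' signal, whose median over the list was 1.76 for replicate 1 and 1.33 for replicate 2. It was ranked within a library only, because nothing says how the libraries were scaled to each other. How many reads lie behind a value is unknown. Whole tissue was used, so in these bulk nuclei fewer cells of a type and less open chromatin per cell cannot be told apart. Of 9 markers of muscle fibres, 7 had a promoter peak in both libraries, and the other two (Tnnt3 and Pvalb) had a peak in replicate 1 only. Of other cell types, 3 of 5 endothelial markers, 1 of 5 adipocyte markers (Cidea), 1 of 5 germ cell markers (Dazl) and none of 6 erythroid, 5 liver, 5 neuronal, 5 macrophage and 3 lymphocyte markers had promoter peaks in both. Peaks in a single library were found at Cdh5 and Epor in replicate 1 and at Grin1 and Lyz2 in replicate 2.

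Upstream sequences of 7 carrier genes are printed because these genes either supply muscle with energy or had some of the strongest promoter signal of the family. The stretch of Slc25a11, the other gene listed for muscle energy supply, is not printed, because it lies in transcribed sequence of its neighbour Rnf167, and it held no footprint of both libraries. Each is 200 bases of the mm10 reference on the strand of the gene, ending at the base before the outermost annotated start site near its promoter peak. Capitals mark bases that lay in footprints of both libraries, inside or outside the promoter peak.
Slc25a3 (chr10:91124060-91124259, minus strand): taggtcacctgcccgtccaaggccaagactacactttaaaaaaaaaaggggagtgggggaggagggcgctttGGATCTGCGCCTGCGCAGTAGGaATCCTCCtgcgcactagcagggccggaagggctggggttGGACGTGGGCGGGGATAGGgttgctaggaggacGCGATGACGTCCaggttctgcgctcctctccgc
Slc25a4 (chr8:46211285-46211484, minus strand): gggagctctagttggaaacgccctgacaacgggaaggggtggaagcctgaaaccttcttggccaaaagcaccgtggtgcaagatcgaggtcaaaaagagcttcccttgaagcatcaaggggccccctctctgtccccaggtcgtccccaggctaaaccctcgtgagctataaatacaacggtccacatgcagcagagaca
Slc25a5 (chrX:36795451-36795650, plus strand): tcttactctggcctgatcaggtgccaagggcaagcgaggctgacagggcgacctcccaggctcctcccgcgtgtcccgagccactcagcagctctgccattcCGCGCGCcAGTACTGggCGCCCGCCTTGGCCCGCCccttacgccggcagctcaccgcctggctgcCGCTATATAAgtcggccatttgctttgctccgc
Slc25a12 (chr2:71367750-71367949, minus strand): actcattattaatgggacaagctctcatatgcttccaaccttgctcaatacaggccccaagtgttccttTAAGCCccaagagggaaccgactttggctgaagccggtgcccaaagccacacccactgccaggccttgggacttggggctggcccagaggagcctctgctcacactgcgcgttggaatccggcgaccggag
Slc25a20 (chr9:108661888-108662087, plus strand): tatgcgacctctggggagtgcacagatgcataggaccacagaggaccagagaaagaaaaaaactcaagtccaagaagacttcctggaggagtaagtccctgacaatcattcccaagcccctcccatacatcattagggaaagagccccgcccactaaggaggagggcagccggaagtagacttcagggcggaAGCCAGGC
Slc25a28 (chr19:43674882-43675081, minus strand): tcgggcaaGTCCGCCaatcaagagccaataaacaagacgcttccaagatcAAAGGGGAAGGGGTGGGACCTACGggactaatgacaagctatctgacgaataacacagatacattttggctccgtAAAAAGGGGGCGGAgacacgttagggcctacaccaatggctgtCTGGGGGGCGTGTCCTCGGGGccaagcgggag
Slc25a32 (chr15:39112717-39112916, minus strand): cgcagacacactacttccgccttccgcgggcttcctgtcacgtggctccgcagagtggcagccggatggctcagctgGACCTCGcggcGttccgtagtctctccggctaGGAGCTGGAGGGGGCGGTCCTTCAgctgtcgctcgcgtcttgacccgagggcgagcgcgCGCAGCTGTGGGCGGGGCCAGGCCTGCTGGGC

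The stretches differed in how much of them was footprinted in both libraries. Slc25a28 had 66 such bases, Slc25a32 had 64, Slc25a3 had 60, Slc25a5 had 42, Slc25a20 had 8 and Slc25a12 had 6. In Slc25a3, a match to CGCANGCG, the motif of nuclear respiratory factor 1, lay 114 to 121 bp before the outermost start site, with all 8 bases in capitals. In Slc25a32, a GGGGCGG match of Sp and Klf factors (75 to 81 bp before the start site) and a CAGCTG match, the E-box that MyoD binds (25 to 30 bp before it), were wholly in capitals. Its 2 other CAGCTG matches had 0 and 2 of 6 bases in capitals, and its match to CACGTG, the E-box of USF and Myc, had 0. In Slc25a28, a GGGGCGG match 63 to 69 bp before the start site was wholly in capitals as well, while its 3 CCAAT matches had 2, 0 and 0 of 5. The promoter peak of Slc25a28 in replicate 2 began 100 bp upstream of the start site. In replicate 2 the GGGGCGG match and the capitals nearer to the start site lay outside that peak. The CCGGAAG matches of ETS factors in Slc25a3 and Slc25a20 had no capital. Slc25a5 had capitals over the letters TATATAA. Slc25a4 had no capital, and none of its 200 bases lay in its promoter peak, which began inside the gene.

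The chromatin at most carrier promoters was open in both libraries. A promoter peak, defined as a peak within 500 bp of a start site of a coding transcript, was present in both libraries at 38 of the 47 carrier genes (80.9%), against 54.2% of all coding genes. A single carrier, Slc25a21, had one in replicate 2 only and none in replicate 1. The other 8, Slc25a2, Slc25a18, Slc25a31, Slc25a37, Slc25a41, Slc25a47, Slc25a48 and Slc25a54, had none in either library. In the longer lists 40 carriers had promoter peaks in both libraries, against 59% of all coding genes, with Slc25a21 and Slc25a48 added. The share was 45.6% (131 of 287) among the solute carriers of other families, which work mainly in other membranes, and 95.8% (23 of 24) among other mitochondrial transport genes. In that last list only Ucp1, the heat-producing uncoupling protein of brown fat, had no promoter peak.

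Once open, carrier promoters had signal in the range of other genes. The median of the 38 genes was 6.13 in replicate 1 and 4.10 in replicate 2, against 5.73 and 3.95 over the 11849 coding genes with a promoter peak in both libraries. Values ran from 0.493 to 15.7 in replicate 1 and from 0.401 to 8.27 in replicate 2. The percentile of a promoter is its rank among all coding genes with a promoter peak in the same library, and its mean over both libraries had a median of 55.1 for carriers and 52.3 for all genes. A mean percentile of 75 or more was reached by 11 of the 38 carriers (28.9%), against 24.9% of all genes, and 7 carriers (18.4%) were below 25, against 21.3%. The mean percentiles of the carriers named below ran from 0.328 to 92.0, so the family spread over nearly the whole scale. The 6 carriers listed for muscle energy supply (Slc25a3, Slc25a4, Slc25a5, Slc25a11, Slc25a12 and Slc25a20) were all open, with a median mean percentile of 53.0.

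**Figure D1:**
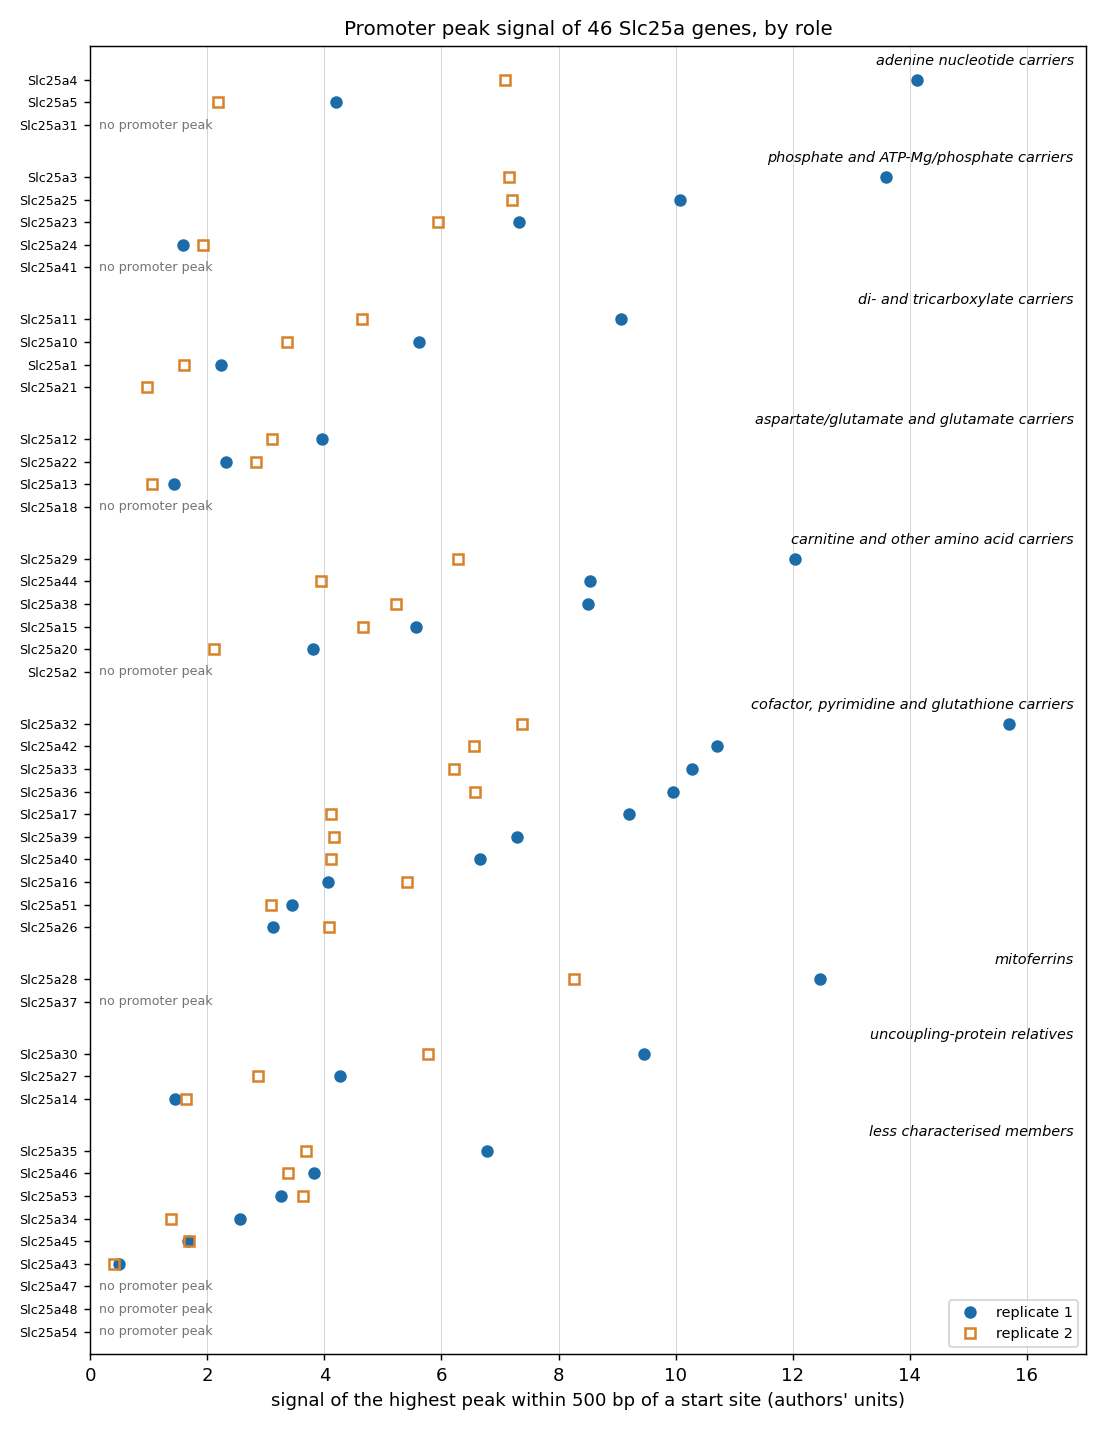
Promoter peak signal in the authors' units (x axis) of 46 of the 47 carrier genes, grouped by role, with a filled circle for replicate 1 and an open square for replicate 2. Every cofactor, pyrimidine and glutathione carrier drawn has both symbols, while 8 genes have no promoter peak and Slc25a21 has a square only; signal is compared within a library, not between circles and squares.

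Adenine nucleotide carriers exchange ATP for ADP, and 2 of the 3 had open promoters. Slc25a4 encodes the form that predominates in heart and skeletal muscle. Its peak had values of 14.1 and 7.09, at percentiles 93.1 and 85.9, among the 5 highest mean percentiles of the family. It did not reach the start site. The peak of replicate 1 (chr8:46210981-46211160) began 124 bp inside the gene and lay wholly in exon sequence, and that of replicate 2 (chr8:46210941-46211160) had the same near edge and was all exonic too. Slc25a5, the form found in most proliferating and non-muscle cells, is on the X chromosome and had 4.19 and 2.19, at percentiles 38.4 and 26.5, with peaks that covered the start site (chrX:36795461-36795680 and chrX:36795461-36795720). Slc25a31, the form of the male germ line, had no peak in either library.

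Among phosphate carriers 4 of 5 were open. Slc25a3 encodes the phosphate carrier that works beside ATP synthase. Its values were 13.6 and 7.15, at percentiles 92.0 and 86.3 (chr10:91123961-91124200 and chr10:91123901-91124200). The ATP-Mg/phosphate carriers, which calcium activates, adjust the adenine nucleotide content of the matrix. Slc25a25 had 10.1 and 7.20, Slc25a23 had 7.32 and 5.95, and Slc25a24 had 1.58 and 1.93. The last was among the 5 lowest open carriers in mean percentile (16.5), with values at percentiles 10.6 and 22.3 (chr3:109123361-109123540 and chr3:109123161-109123560). Slc25a41, a short member of this group that lacks the calcium-binding domain, had no peak.

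Carriers of organic acids and of the malate-aspartate shuttle were open at 6 of 8 genes and not at the top of the family. The other two were Slc25a18, without a peak, and Slc25a21, the oxodicarboxylate carrier, with a peak in replicate 2 only. Slc25a11, the oxoglutarate carrier of the shuttle, had 9.06 and 4.65, at percentiles 74.0 and 61.8 (chr11:70646961-70647160 and chr11:70646801-70647120). Slc25a12, the aspartate/glutamate carrier that predominates in muscle and brain, had 3.96 and 3.10, at percentiles 36.2 and 40.1 (chr2:71367621-71367880 and chr2:71367721-71367900). Its relative Slc25a13, the form of liver, had 1.43 and 1.06, at percentiles 8.81 and 8.41 (chr6:6217061-6217280 and chr6:6216941-6217260). The muscle form thus ranked above the liver form in each library, though both were open. Slc25a22, a glutamate carrier, had 2.32 and 2.84, while its close relative Slc25a18 had none. Slc25a10, the dicarboxylate carrier, had 5.61 and 3.36, and Slc25a1, the citrate carrier that feeds fatty acid synthesis, had 2.23 and 1.60.

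Among carriers of carnitine and other amino acids, 5 of 6 were open. Slc25a20, which brings acylcarnitines in for fatty acid oxidation, had 3.81 and 2.11, at percentiles 35.0 and 25.2 (chr9:108662001-108662180 and chr9:108662021-108662280). Slc25a29, a carrier of basic amino acids, was the highest of the group with 12.0 and 6.29. Slc25a44, which imports branched-chain amino acids, had 8.53 and 3.94. Slc25a38, a glycine carrier needed for haem synthesis, had 8.51 and 5.22, and Slc25a15, the ornithine carrier of the urea cycle, had 5.56 and 4.65. The related ornithine carrier Slc25a2 had no peak.

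All 11 carriers of cofactors, pyrimidine nucleotides and glutathione were open. Slc25a32, which carries folate, had 15.7 and 7.37, at percentiles 96.1 and 87.8 (chr15:39112641-39112880 and chr15:39112621-39112840). Its mean percentile of 92.0 was among the 5 highest of the family. Slc25a42 (coenzyme A) had 10.7 and 6.56, and the pyrimidine nucleotide carriers Slc25a33 and Slc25a36 had 10.3 and 6.21, and 9.96 and 6.57. Slc25a17, a carrier of the peroxisome, had 9.20 and 4.11. The glutathione carriers Slc25a39 and Slc25a40, a pair of close relatives, had 7.29 and 4.17, and 6.66 and 4.12, so they lay near each other in both libraries. Lower in replicate 1 were Slc25a16, linked to coenzyme A (4.06 and 5.41), Slc25a51, the NAD carrier (3.45 and 3.09), and Slc25a26, which imports the methyl donor S-adenosylmethionine (3.12 and 4.09).

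The mitoferrins, which import iron, split. Slc25a28 (mitoferrin 2), the form of most tissues, had 12.5 and 8.27, at percentiles 88.7 and 92.4 (chr19:43674841-43675180 and chr19:43674981-43675460), the highest carrier value in replicate 2. Slc25a37 (mitoferrin 1), the form of red cell precursors, had no peak in either library. The 3 relatives of the uncoupling proteins were all open, with 9.46 and 5.78 at Slc25a30, 4.27 and 2.86 at Slc25a27 and 1.44 and 1.64 at Slc25a14. Slc25a14 is X-linked and was among the 5 lowest, at percentiles 8.95 and 17.7 (chrX:48623621-48623820 and chrX:48623541-48623840).

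Of the 9 less characterised members 6 were open, with a median mean percentile of 28.2. Slc25a35 had 6.78 and 3.69, Slc25a46, an outer membrane protein of mitochondrial shape, had 3.82 and 3.38, Slc25a53 had 3.25 and 3.63, and Slc25a34 had 2.56 and 1.39. Slc25a45 had 1.68 and 1.68, at percentiles 12.0 and 18.4 (chr19:5878049-5878275 and chr19:5878041-5878300). Slc25a43 was the lowest of the family, with 0.493 and 0.401, at percentiles 0.0943 and 0.561. Its highest peaks did not overlap (chrX:36743645-36743721 and chrX:36743897-36743974), whereas those of the 37 other open carriers did. In replicate 2 it had 2 promoter peaks, of which only the highest was compared.

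The libraries ranked carriers much alike. The absolute difference between percentiles of replicate 1 and replicate 2 had a median of 7.38 over the 38 carriers and 7.03 over all genes. The largest was at Slc25a16, with percentile 37.2 in replicate 1 and 70.9 in replicate 2. Slc25a26 had 27.6 and 54.5, and Slc25a17 differed the other way with 74.7 and 54.9. Among the highest carriers, Slc25a32, Slc25a28, Slc25a4 and Slc25a3 were at or above percentile 85.9 in each library. The genes Slc25a16, Slc25a26 and Slc25a17 were picked out after their values were seen.

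**Figure D2:**
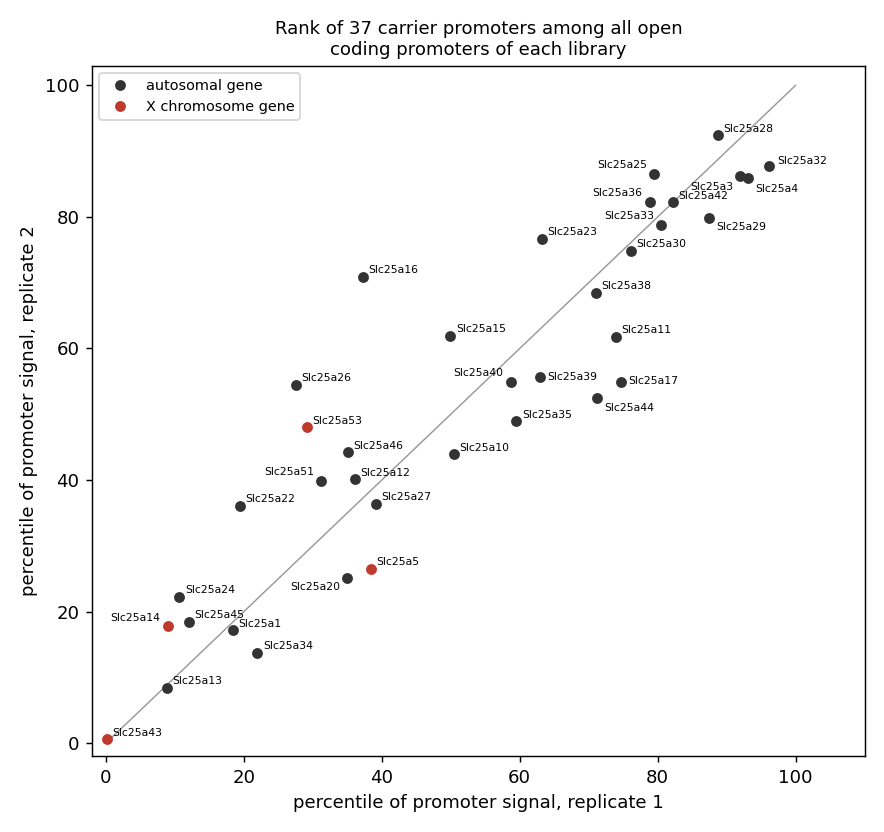
Percentile of the promoter signal of 37 of the 38 open carriers in replicate 1 (x axis) and replicate 2 (y axis) among all coding genes with a promoter peak in that library, with X-linked genes in red and the line of equal ranks in grey. Slc25a16 (37.2 and 70.9) lies farthest from the line, and the 4 X-linked carriers lie in the lower part of both scales.

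Of the 9 carriers without a promoter peak in both libraries, 2 had listed signal at their start site. Of the 8 with no peak in either library, only Slc25a48, linked to choline import, had bases below a false discovery rate (q-value) of 0.05 in the promoter window, with smallest q-values of 0.00117 in replicate 1 and 0.0346 in replicate 2. Among all coding genes with no promoter peak in either library, 5.62% had such a base in both. In the longer lists Slc25a48 had values of 0.826 and 0.506, the only peaks it had near its start site. Slc25a21 had its peak of 0.966 in replicate 2 at 332 bp inside the gene (chr12:57196721-57197140) and, in the longer lists, 0.641 in replicate 1 and 0.966 in replicate 2. Its smallest q-values were 0.00217 and 1.29e-11. For the other 7 genes the authors list no run of bases below 0.05 in the promoter window of either library.

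Distances to the nearest peak differed widely among these genes. Slc25a18 had a peak 1313 bp from its start site in replicate 1, with a value of 0.814, and its nearest peak in replicate 2 was 21941 bp away. At Slc25a37 the nearest peaks were 43292 and 43302 bp away, just past the far end of the gene. For Slc25a31 they were 26152 and 36466 bp away, and for Slc25a54 they were 17207 and 28706 bp away. Slc25a47, a liver-expressed member, had them at 6545 and 14829 bp, Slc25a41 at 9627 bp in both libraries, Slc25a2 at 5416 and 5356 bp, and Slc25a48 at 8952 and 4626 bp. Slc25a21 lacked a peak within 18372 bp in replicate 1. Most markers of the cell types in which 3 of these genes are known had no promoter peak in both libraries. For red cell precursors (Slc25a37) 0 of 6 were open in both libraries, for liver (Slc25a47) 0 of 5, and for germ cells (Slc25a31) 1 of 5, with values of 7.16 and 3.51 at Dazl. Neuronal, macrophage and lymphocyte markers had 0 as well, and Slc25a13, the form of liver, was open in both libraries. A link between these markers and the closed carriers was not tested.

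Carriers more often had CpG-rich start sites than other genes. CpG-rich means a ratio of observed to expected CpG of at least 0.6 within 250 bp of a start site, a class set after the data were seen. It held 37 of 47 carriers (78.7%), against 54.9% of all coding genes. Promoter peaks in both libraries were found at 34 of these 37 (91.9%), against 85.7% of all CpG-rich genes. Of the 10 other carriers 4 were open (40%), against 15.9% of all such genes. Those 4 were Slc25a20 (ratio 0.573), Slc25a34 (0.0683), Slc25a43 (0.556) and Slc25a45 (0.331), with mean percentiles from 0.328 to 30.1. The median mean percentile was 58.1 for open CpG-rich carriers and 16.5 for these 4. The CpG-rich carriers without a promoter peak in either library were Slc25a31 (0.852), Slc25a37 (0.683) and Slc25a48 (0.693), so a CpG-rich start site did not always come with an open promoter.

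**Figure D3:**
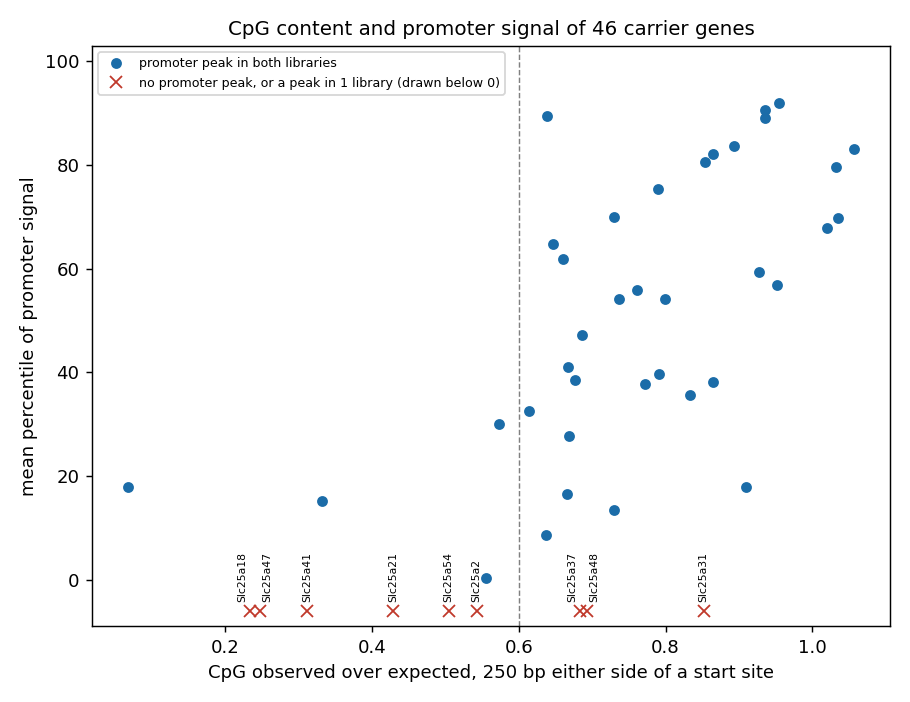
Ratio of observed to expected CpG around the start site (x axis) and mean percentile of promoter signal (y axis) of 46 of the 47 carriers, with crosses below 0 for the 9 genes without a promoter peak in both libraries and a dashed line at 0.6. Slc25a31, Slc25a37 and Slc25a48 are crosses to the right of the line, and 4 open carriers stand to its left.

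The 4 X-linked carriers, Slc25a5, Slc25a14, Slc25a43 and Slc25a53, were all open but low, with values of at most 4.19 and 3.63 and mean percentiles of 32.5, 13.3, 0.328 and 38.6. The 34 open carriers on autosomes had a median of 58.1. The same direction held over all genes, since 37.7% of X-linked coding genes were open, with a median mean percentile of 25.6, against 55.4% of autosomal genes, with a median of 53.5. Males carry a single X chromosome, and its part in these values was not tested.

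Of the 47 genes, 19 have more than 1 start site. Start sites without a peak in both libraries, beside others with one, were found at 4 of them, Slc25a22, Slc25a25, Slc25a36 and Slc25a53. At Slc25a25 the outer sites (chr2:32451422 and chr2:32451445) shared the peak of 10.1 and 7.20, and an inner site (chr2:32431119) had a weaker peak of 2.63 and 1.84. The innermost site (chr2:32424005) had 2.75 in replicate 1 and no peak in replicate 2. At Slc25a36 the inner site (chr9:97084470) had no peak in either library, and at Slc25a22 neither did the inner site (chr7:141434594). At Slc25a53 the inner site (chrX:136993032) had 0.434 in replicate 2 only. These genes were singled out after their values were seen.

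The highest promoter peak of a gene usually covered the start site, with a few offset. It did so at 32 of 38 carriers in replicate 1 (84.2%), against 74.7% of all genes, and at 29 in replicate 2 (76.3%), against 77.0%. Beside Slc25a4, the highest peak of Slc25a38 lay wholly in an intron, 367 and 307 bp inside the gene. That of Slc25a23 lay wholly upstream, 378 and 398 bp from the start site, the farthest within the limit of 500 bp. Slc25a38 and Slc25a23 each had more than 1 promoter peak in each library. Both still had a promoter peak in both libraries with a limit of 250 bp from a start site. The peak of Slc25a45 was wholly exonic, 188 and 180 bp inside, and the highest peak of Slc25a24 lay 212 and 12 bp inside. That of Slc25a28 covered the start site in replicate 1 and began 100 bp upstream of it in replicate 2. A peak shared with the start site of another coding gene was found at 5 of the 38 (13.2%), against 17.5% of all genes. The partners were Rnf167 at Slc25a11, Cyp39a1 at Slc25a27, Dcaf13 at Slc25a32, Dbf4 at Slc25a40 and B930094E09Rik at Slc25a46, and the signal there cannot be assigned to either gene by position. Slc25a47 and Slc25a29 are neighbours on chromosome 12. With start sites of all annotated transcripts, Slc25a47 counted as open through the peak of Slc25a29, because an outer transcript of it begins at 108836046, beside the Slc25a29 start at 108835883.

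Footprints lay in the promoter peak of both libraries at 37 of the 38 open carriers, against 97.4% of all genes with a promoter peak in both. Slc25a43 had 0 in replicate 1 and 1 in replicate 2. In all, carrier promoter peaks held 131 footprints in replicate 1 and 234 in replicate 2, with a median of 3 and 6 per gene, against 4 and 5 over all genes. Of the footprints of replicate 1, 98 (74.8%) overlapped a footprint of replicate 2, against 75.4% over all genes. Of those of replicate 2, 107 (45.7%) overlapped one of replicate 1, against 49.2%. Footprints at carriers thus recurred about as often as elsewhere. The most in a single peak were 8 in replicate 1, at Slc25a42, and 11 in replicate 2, at Slc25a23 and Slc25a51.

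**Figure D4:**
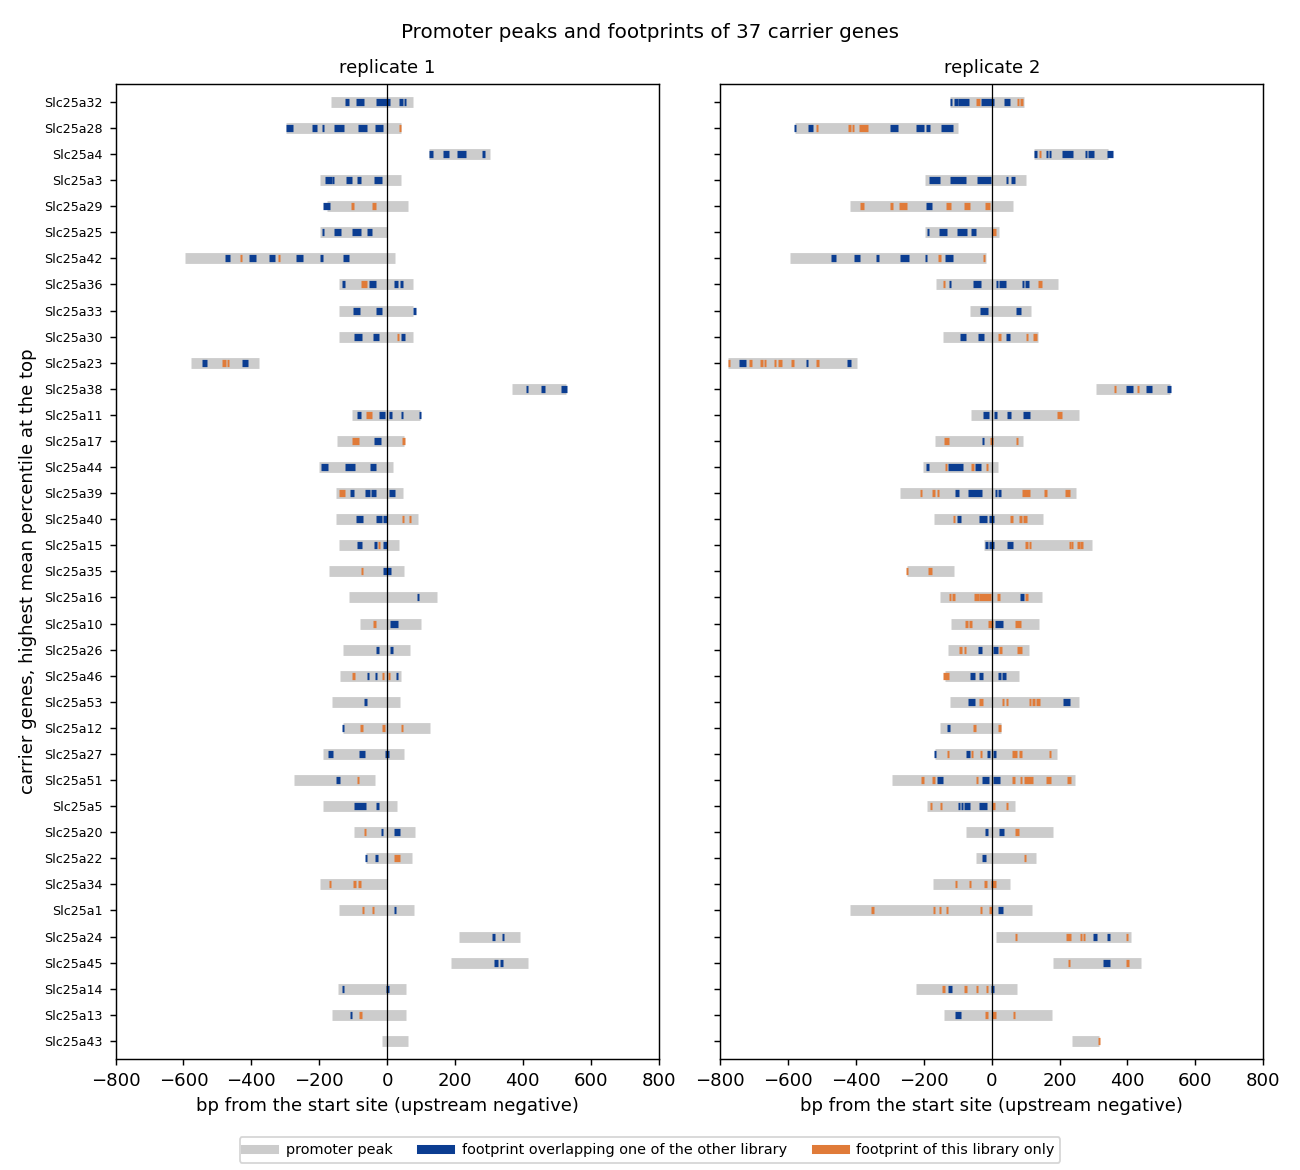
Promoter peaks (grey) and footprints of 37 of the 38 open carriers by distance from the start site in bp (x axis, upstream negative), genes ordered by mean percentile from the top, replicate 1 left and replicate 2 right; blue footprints overlap a footprint of the other library and orange ones do not. Only the highest promoter peak of each gene in a library is drawn, with its footprints. In both libraries the peak drawn lies to the right of the start site at Slc25a4, Slc25a24, Slc25a38 and Slc25a45, and to its left at Slc25a23. Slc25a43 has no footprint in replicate 1.

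Windows of 300 bp around the centre of the replicate 1 promoter peak were searched for motif letters on both strands. A match describes letters, not binding. Of 12 motifs, 7 were found in a larger share of the 38 carrier windows than of all 11849 windows. CCAAT, the box of NF-Y, was in 21 carriers (55.3%), against 38.8% of all, and GGGGCGG of Sp and Klf factors in 21 (55.3%), against 50.8%. CCGGAAG of ETS factors was in 10 (26.3%), against 20.9%, CACGTG, the E-box of USF and Myc, in 7 (18.4%), against 10.8%, and TGCCAA, a partial site of nuclear factor I that can share letters with CCAAT, in 4 (10.5%), against 9.86%. TGACGTCA of CREB was in Slc25a26 and Slc25a36 (5.26%), against 4.08%, and TGAGTCA of AP-1 in Slc25a13 and Slc25a45 (5.26%), against 2.57%. The order turned in other windows for 3 of the 7. GGGGCGG was in 47.4% of carriers and 48.3% of all with windows on the replicate 2 peak, and with windows from 250 bp before to 50 bp after the start site TGCCAA was in 2.63% and 10% and TGAGTCA in 2.63% and 2.72%. With 38 windows, a single gene is worth 2.63 percentage points of these shares.

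The other 5 motifs were in a smaller share of the carrier windows than of all windows. CGCANGCG of nuclear respiratory factor 1 was in 3 carriers, Slc25a3, Slc25a24 and Slc25a51 (7.89%), against 21.1% of all windows. AAGATGG of YY1 was in Slc25a44 alone (2.63%), against 7.97%, and CAGCTG of MyoD in 5 carriers (13.2%), against 15.9%. TNAAGGTCA, a site of the oestrogen-related receptors, was in 0 carriers, against 0.371% of all windows, and in 1 carrier, Slc25a28 (2.63%), against 0.422%, with windows on the replicate 2 peak. CTATTTNTA of MEF2 was in 0, against 0.616%. No match says only that these letters are not in the window.

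Matches that overlapped a footprint of both libraries are the ones that recurred in the cleavage data. For GGGGCGG there were 11 such carriers (28.9%), against 32.9% of all windows, and for CCAAT there were 6 (15.8%), against 11.9%, among them Slc25a4, Slc25a25, Slc25a28, Slc25a42 and Slc25a44. For CCGGAAG there were 3 (7.89%), against 8.28%, namely Slc25a17, Slc25a42 and Slc25a46. Both carriers with TGACGTCA had it in a footprint (5.26%, against 3.49% of all windows), with the middle of the match 32 bp before the start site in Slc25a26 and 42 bp in Slc25a36. Footprints of both libraries also overlapped the CGCANGCG match of Slc25a3 (2.63% of carriers, against 14.8% of all windows). The same held for the AAGATGG match of Slc25a44 (2.63%, against 1.79%) and for CAGCTG matches of Slc25a32 (2.63%, against 2.15%). TGCCAA was footprinted in both libraries at Slc25a16 and Slc25a42 (5.26%, against 3.03%). TGAGTCA, TNAAGGTCA and CTATTTNTA had 0 such carriers, against 0.245%, 0.0422% and 0.127%. The 7 carriers with CACGTG had 0 matches footprinted in both libraries, against 3.23% of all windows.

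**Figure D5:**
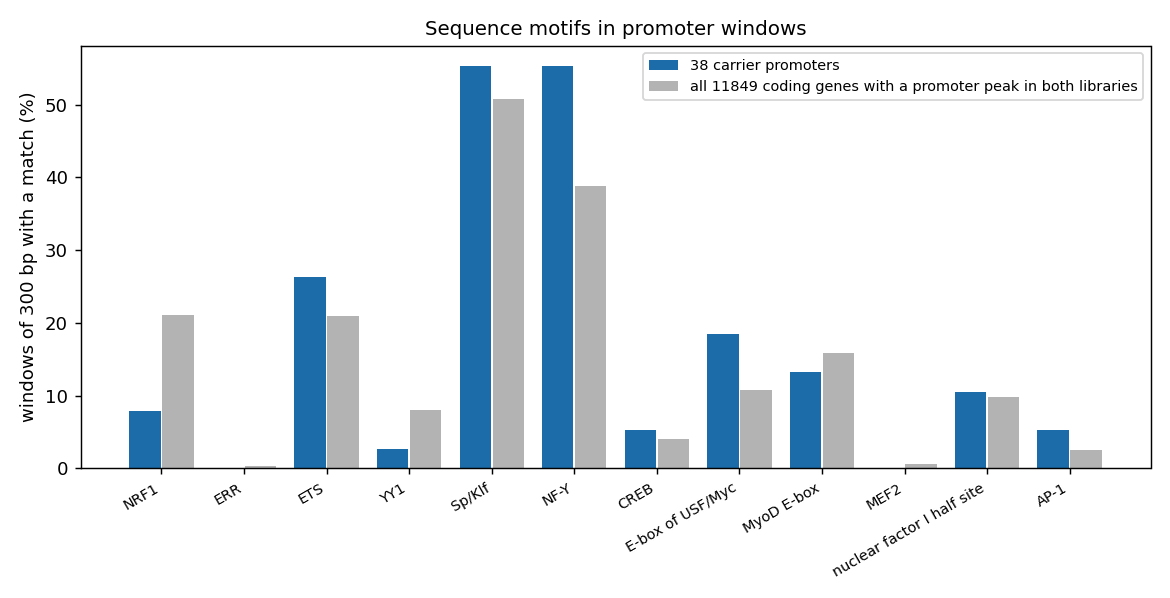
Share of 300 bp promoter windows with a match to each of 12 motifs (y axis, percent), in blue for the 38 carriers and in grey for all 11849 coding genes with a promoter peak in both libraries. The CCAAT box of NF-Y stands at 55.3% and 38.8%, and the motif of nuclear respiratory factor 1 at 7.89% and 21.1%.

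A TATAA box, searched on the sense strand from 50 to 15 bp before a start site and chosen after the sequences were seen, was present at Slc25a4 and Slc25a5 and at no other carrier. That is 5.26% of open carriers, against 3.09% of all open genes, and 4.26% of all carriers, against 6.87% of all coding genes. Both are adenine nucleotide carriers. At Slc25a5 the box lay in a footprint of both libraries, as its capitals above show. At Slc25a4 it lay outside the promoter peak.

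Most carriers, like most coding genes, had no distal region open in both libraries. A distal region lay more than 1 kb from all annotated start sites and within the gene or 10 kb of it. At least 1 such region open in both libraries was found at 13 of the 47 carriers (27.7%), against 32.2% of all coding genes. Per 100 kb of window there were 0.552 around carriers and 0.854 around all genes, and the median gene length was 21486 bp for carriers and 17380 bp for all genes. Slc25a21, the longest carrier gene (484839 bp), had 0 regions open in both libraries, and its length counts in the carrier window of 2.72 Mb. There were 15 distinct regions in both libraries, 23 in replicate 1 alone and 20 in replicate 2 alone. Thus 25.9% of the 58 were shared, against 41.6% of all 38171 distal regions of the genome, whether near a coding gene or not. Of the regions in a single library, 12 lay at Slc25a26 alone. Of the 15, 9 were intergenic, 5 exonic and 1 intronic.

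Slc25a4 and Slc25a37 had 2 shared distal regions each, and the other 11 genes had 1. At Slc25a4 they were a region in its exon sequence (chr8:46208412-46208580, values 1.18 and 1.10) and an intergenic region 5797 bp upstream of the start site (chr8:46216981-46217180, 1.76 and 1.01). At Slc25a37, whose promoter was closed, both lay beyond the far end of the gene (chr14:69238335-69238440, 0.838 and 0.920, and chr14:69241653-69241820, 1.38 and 1.14). The strongest of all lay 4367 bp upstream of the nearest coding start site of Slc25a39 (chr11:102411821-102412000). It had 6.25 and 5.24, at percentiles 88.3 and 91.5 of each peak list, with 5 and 3 footprints. That is close to the value of 7.29 at the promoter of Slc25a39 in replicate 1, and above its promoter value of 4.17 in replicate 2.

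Next in signal were a region 12360 bp downstream of the Slc25a5 start site (chrX:36807821-36808200), with 4.49 and 2.86, and an exonic region past the far end of Slc25a25 (chr2:32404821-32404980), with 4.29 and 4.58. The coding start site nearest to this exonic region is that of Ptges2. A region 4446 bp upstream of Slc25a42 (chr8:70216581-70216920) had 2.11 and 3.06. The other shared regions, at Slc25a12, Slc25a18, Slc25a24, Slc25a28, Slc25a30, Slc25a35 and Slc25a48, had values from 0.888 to 1.73 in replicate 1 and from 0.736 to 2.19 in replicate 2. Slc25a26 stood out for regions that did not recur, with 12 in a single library and 0 in both. Of these, 4 were in replicate 1 (1.02 to 1.97), and 8 were weak regions of replicate 2 (0.250 to 0.322) beyond the far end of the gene, 108 to 112 kb from its start site. This gene was also picked out after its values were seen.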

How the data were processed

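DNase-seq peaks, footprints and false discovery rates of 2 libraries of gastrocnemius nuclei, on mm10 per the labels, were analysed. Not given in the sources used here are the aligner, the callers, their settings and the handling of CAST/EiJ alleles, which could lower alignment where they differ from the reference. The signal of each peak in the peak lists is as the authors deposited it, called per library. The q-values are from the deposited tables of false discovery rates, in which the authors list runs of bases below 0.05. The footprints carry a deposited score of 0.01 on every line, so positions alone were used.

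Genes and sequence came from GRCm38.p6 and GENCODE release 21. Start sites were those of protein-coding transcripts of the basic set. A promoter peak lay within 500 bp of a start site, and the highest counted. It was not required that peaks of both libraries overlap, and genes of the mitochondrial genome were left out. Distal regions were merged regions over 1 kb from all annotated start sites, within the gene or 10 kb. Footprints were counted where they overlapped a peak, and motif matches where they overlapped a footprint, by at least 1 bp. Interval joins, ranks and motif searches used Python 3.11.15, pandas 2.3.3, numpy 2.4.6, scipy 1.17.1 and bedtools 2.31.1. The promoter and merging steps were tested on simulated data.

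The labels number the libraries as biological replicates of 1 group but share a donor identifier between them. With 1 group there was no test. The genes, role groups, lists and motifs were chosen with earlier results of these data known. Every carrier was counted, and 1 is not reported here on its own. Full values were given for the muscle energy genes, the other carriers among the 5 highest and the 5 lowest open carriers by mean percentile and those without a peak in both libraries.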

Additional observations from a re-analysis of the deposited data

How the results depend on the processing

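Promoter peaks in both libraries were found at 38 carriers, and at 33 to 40 under the alternatives of peak list, peak threshold, distance, transcript set and peak overlap. Keeping the upper part of each list, from its median value, left 33, without Slc25a13, Slc25a14, Slc25a24, Slc25a43 and Slc25a45, against 47.5% of all genes. Either library alone gave 38 or 39, against 55.8% or 57.1% of all genes. The count with footprints was 37, against 52.8% of all coding genes. It was 37 to 39 under its alternatives, against 52.4% to 56.3%. The 15 shared distal regions were the count most sensitive to choices. They became 68 with 50 kb either side, where more sequence is searched, 41 with the longer lists and 35 to 38 in either library alone. The share of all coding genes with at least 1 such region rose as well. From 32.2% it went to 58.2%, to 45.1%, and to 38.6% or 42.4%. A count of regions and a share of genes are unlike measures, so these do not show how carriers stood against other genes. The median mean percentile of 55.1 moved to 57.9 with the longer lists, to 53.0 with the peak nearest to a start site, and to values from 54.6 to 54.7 in either library alone. Of 12 motifs, 7 were above the share of all windows with the window on either library's peak, though not the same 7, and 5 with a window on the start site. No paired analysis was possible because the libraries form 1 group. With 2 libraries the spread between them cannot be estimated well, and since depth is unknown, a promoter without a peak is one with none past the authors' threshold.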
